A study of Mus musculus with 138 samples.

Results

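The ETS transcription factors Erg, Ets1, Ets2, Fli1 and Elk3 were followed through the calvarial sutures of the mouse embryo. These 5 genes were chosen by name from 55487 annotated genes, and all 5 stood among the 19768 genes that passed the filter on low counts, a counts-per-million value (CPM) of 1 in over 10% of the libraries. The study captured the suture mesenchyme (SM) and the osteogenic fronts (OFs) of the adjoining bones by laser from sections of wild-type C57BL/6J embryos. The OFs were those of the frontal (FR), parietal (PA) and interparietal (IP) bones. At E16.5 and at E18.5, 5 embryos each gave the coronal (SM, FR, PA), frontal (SM, FR), lambdoid (SM, IP, PA) and sagittal (SM, PA) sutures, so that 40 embryos gave 100 libraries in 20 groups of 5. No embryo carried a mutation or received a treatment. All regions of 1 embryo share its label, and the embryos differ from suture to suture. Within many groups several embryos share the first part of their label, and no such part spans both ages. Its meaning is not given, and it entered no test. Dissociated strips of wild-type coronal suture, pooled from several embryos, gave a further 4 single-cell libraries, 2 per age by the labels. The deposited names of the E18.5 matrices carry the code of the younger age. The labels were followed. Cells of these matrices past the study's filter on detected genes are as many as its methods give for the older age, while those of the other matrices are fewer than it gives for the younger.

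ETS factors share a winged helix domain that reads a GGAA core in DNA. Erg and Fli1 form a pair of closely related genes known for their part in the endothelium and in blood-forming cells, and Erg is also known from joint and cartilage primordia. Ets1 and Ets2, the founding pair, carry a Pointed domain next to a site that ERK kinases phosphorylate, which raises their activity. Elk3, a ternary complex factor, binds DNA together with the serum response factor Srf, represses its targets and turns into an activator when ERK phosphorylates it. All 5 are expressed in endothelial cells, so that vessels within a captured region can add to their counts.

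On mm10, Erg (ENSMUSG00000040732.20, chr16:95359169-95586593, minus strand) and Ets2 (ENSMUSG00000022895.16, chr16:95702075-95721051, plus strand) are neighbours. Fli1 (ENSMUSG00000016087.13, chr9:32422204-32542861, minus strand) and Ets1 (ENSMUSG00000032035.15, chr9:32636221-32757820, plus strand) are likewise neighbours, and Elk3 (ENSMUSG00000008398.15) lies at chr10:93247414-93311135 on the minus strand. The counts ignored strand, and 632 exon bases of Elk3, 13.9% of its exon length, are shared with Cdk17 on the opposite strand, so that reads there cannot be told apart. No other member shared exon bases with another gene. RefSeq windows of 250 bases before the transcription start were at hand for 3 of the 5 genes (assembly GRCm38.p6). For Erg there were 3 windows, before different starts. The one before the longest Erg transcript and that of Elk3 are shown, since of the 3 genes Erg was called most often and Elk3 least often between SM and OF. The capitals mark GGAA or its reverse complement TTCC, which were searched on both strands.
Erg, chr16:95586594-95586843, minus strand: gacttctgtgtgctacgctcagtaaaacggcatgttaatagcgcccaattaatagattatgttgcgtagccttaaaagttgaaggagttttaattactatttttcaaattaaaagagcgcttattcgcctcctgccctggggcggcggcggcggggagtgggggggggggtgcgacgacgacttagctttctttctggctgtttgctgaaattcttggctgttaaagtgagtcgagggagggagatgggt
Elk3, chr10:93311160-93311409, minus strand: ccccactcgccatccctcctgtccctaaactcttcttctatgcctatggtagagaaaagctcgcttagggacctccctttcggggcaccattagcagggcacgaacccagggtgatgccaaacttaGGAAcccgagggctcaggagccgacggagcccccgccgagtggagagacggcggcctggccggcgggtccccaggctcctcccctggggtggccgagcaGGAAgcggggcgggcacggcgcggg
The window of the longest Erg transcript held neither motif, as did 6.6% of the 32851 mouse windows, but the other Erg windows held 4 (chr16:95530366-95530615) and 2 (chr16:95459349-95459598). The window of Elk3 held 2, where 76.8% of the windows held at least 2. These letters are a description, and say nothing of which factor binds there.

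The 100 libraries held 7305627 to 34518477 counts (median 14244957), and the coronal libraries, at 20133332 or more, were the deepest. No 2 libraries were identical. The median Spearman correlation of a library with the others of its group ran from 0.846 to 0.982, and the 8 lowest were coronal SM and FR libraries of E16.5. The FR library of frontal embryo 5 at E18.5 stood at 0.890 where the rest of its group stood at 0.930 or above, and the frontal results of Erg and Ets2 are given with and without embryo 5. For 18 coronal samples a second library exists, whose nature the labels do not give. In these libraries Erg was lower than in the first library of the same sample in 18 of 18 samples (median log2 difference -1.16, range -2.64 to -0.26), and Ets2 was higher in 18 of 18 (median 0.59, range 0.22 to 1.06). Erg and Ets2 levels of the coronal suture therefore depend on the library set, and levels of the coronal and other sutures were compared by values only. The main fit and that of the second libraries alone computed differences between SM and OF within 1 set. An alternative put second libraries in place of the first where they exist, which mixed both sets within some embryos. In bulk regions, fewer expressing cells and less RNA per cell cannot be told apart. The osteoblast genes Ibsp, Sp7 and Runx2, which OFs should hold, were lower in SM by 6.94, 3.13 and 0.86 on the log2 scale (mean of the 12 comparisons below), as the region labels say.

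Erg was the most variable of the 5 genes and the one most often higher in SM. Per kilobase of exon, the mean over the 20 groups was 45.1 CPM for Erg, 14.5 for Elk3, 11.8 for Ets2, 5.91 for Fli1 and 3.45 for Ets1. In the first libraries, the highest group mean was 37.3 times the lowest for Erg, 7.84 times for Ets1, 3.16 for Fli1, 2.83 for Ets2 and 2.77 for Elk3. When the 20 groups were put in order by mean, the step between neighbours exceeded the larger of their SDs, both on the log2 scale here and below, in 4 of 19 steps for Erg, 3 for Ets1, 1 for Ets2, 1 for Fli1 and 0 for Elk3. Most neighbours in these orders thus do not differ beyond their spread.

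**Figure D1:**
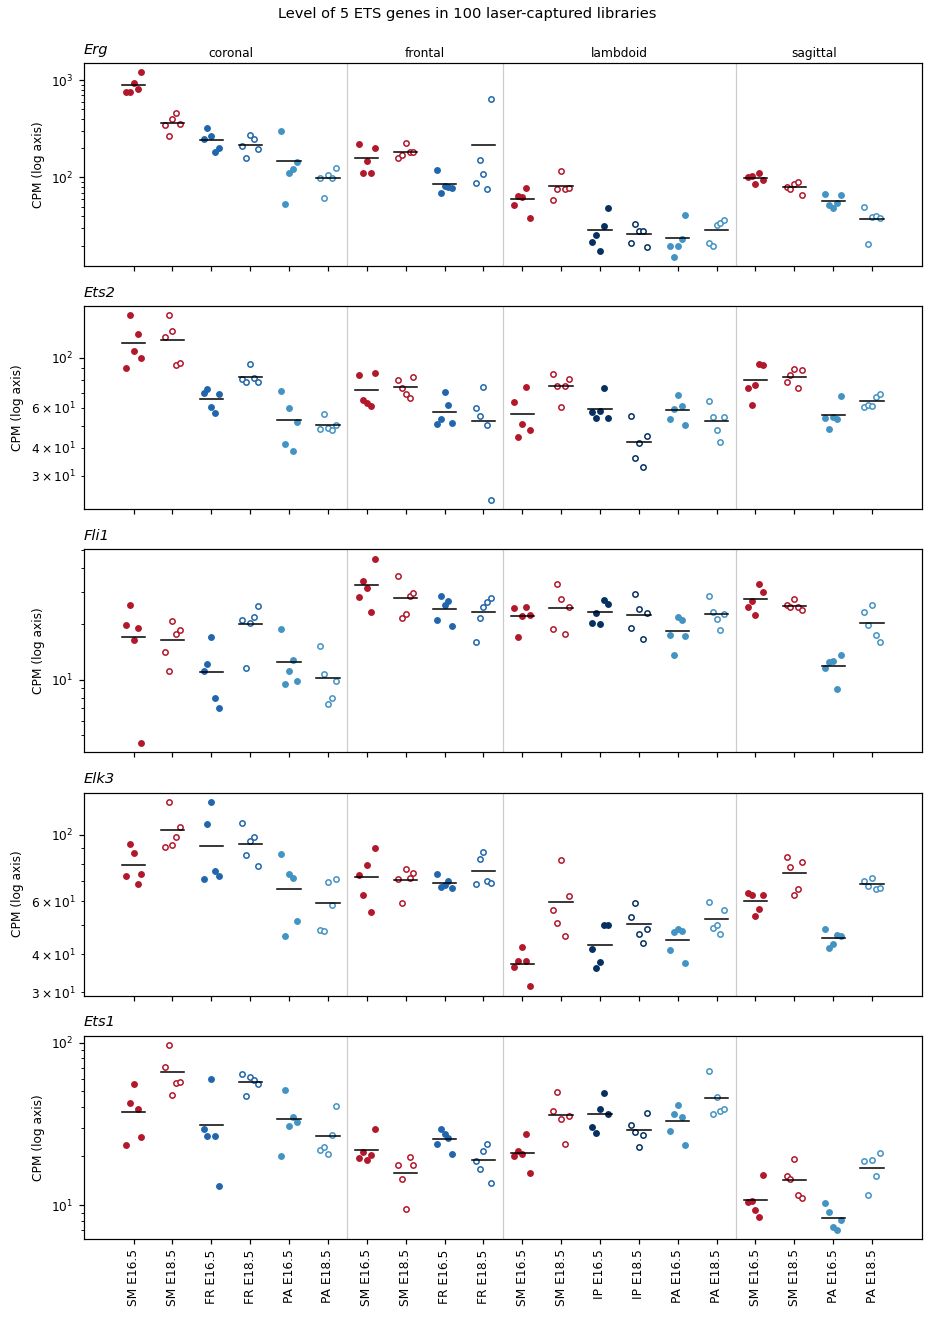
Level of each gene in CPM (log axis) in the 20 groups of suture, region and age, with 1 point per embryo and a bar at the mean of 5. Erg runs from 15.3 to 1202 CPM over the libraries and is highest in coronal SM at E16.5, whereas Elk3 stays between 31.3 and 129 CPM.

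In coronal SM at E16.5, Erg stood at 756, 747, 943, 809.8 and 1202 CPM in the 5 embryos, a mean of 891 ± 191 (SD, n = 5 here and for every group mean). The FR of the same embryos held 248.8, 326, 264, 184 and 199 CPM, and the PA 301, 53.1, 111, 121 and 145. Every SM library exceeded every OF library. SM was higher than FR by 1.85 on the log2 scale (SE 0.27, adjusted p = 2.7e-07) and higher than PA by 2.73 (SE 0.28, adjusted p = 1.3e-11, edgeR quasi-likelihood test with embryo as a block, here and for the other SM and OF differences of the first libraries). At E18.5, coronal SM held 344, 269, 403, 464 and 350.3 CPM. The FR held 211, 158, 271, 247 and 194 CPM, the highest of which passed the lowest SM library, and the difference of 0.76 (SE 0.26) had an adjusted p of 0.10. It passed with limma-voom (0.76, adjusted p = 0.0062) and without the low-count filter (0.75, adjusted p = 3.2e-05). The PA held 98.7, 61.2, 106, 98.99 and 126 CPM, all below SM (log2 difference 1.91, SE 0.27, adjusted p = 1.4e-07).

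In the lambdoid and sagittal sutures SM again exceeded OF, and the group means of Erg lay below those of coronal SM and FR in the first libraries. The second libraries of coronal FR at E16.5 held only 42.8 to 96.5 CPM. Lambdoid SM held 52.5, 65.0, 63.6, 78.3 and 38.7 CPM at E16.5 against 21.9, 25.5, 17.4, 31.7 and 48.3 in IP and 19.8, 15.3, 19.8, 23.4 and 41.3 in PA. Embryo 5 alone made the groups overlap, and its SM was its lowest region. The differences were 1.15 from IP (SE 0.28, adjusted p = 0.0019) and 1.42 from PA (SE 0.28, adjusted p = 6.0e-05), and the first was lost with limma-voom (1.01, adjusted p = 0.15). At E18.5, lambdoid SM held 59.2, 76.1, 116, 76.9 and 78.7 CPM. Its lowest library lay above every library of IP (21.2, 33.4, 28.6, 28.2 and 19.5) and of PA (21.2, 19.7, 32.6, 33.8 and 36.5). The differences were 1.61 from IP (SE 0.28, adjusted p = 6.1e-06) and 1.49 from PA (SE 0.27, adjusted p = 1.9e-05). Sagittal SM held 102, 105, 86.1, 111 and 94.5 CPM at E16.5 against 67.96, 52.6, 48.3, 54.4 and 65.9 in PA, with no overlap (0.79, SE 0.27, adjusted p = 0.026). This call was lost without embryo 2 (0.74, adjusted p = 0.065), 3 (0.76, 0.10) or 4 (0.76, 0.12), and with limma-voom (0.79, 0.054) or without the embryo block (0.78, 0.059). At E18.5 sagittal SM held 79.1, 76.4, 86.4, 89.8 and 66.4 CPM and PA 50.02, 20.9, 38.9, 40.0 and 38.4, again with no overlap (1.12, SE 0.27, adjusted p = 8.8e-04).

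In the frontal suture Erg was called higher in SM at E16.5 but not at E18.5. At E16.5 its SM held 219.5, 110.4, 149, 110.2 and 203 CPM and its FR 120.0, 70.1, 80.9, 79.8 and 78.3. SM was higher in each embryo, but the FR of embryo 1 passed the SM of embryos 2 and 4 (log2 difference 0.85, SE 0.27, adjusted p = 0.030). The call was lost without embryo 1 (0.88, adjusted p = 0.075), 3 (0.85, 0.12) or 4 (0.97, 0.064), and without the embryo block (0.88, 0.053). At E18.5 the SM held 157, 171, 227, 183 and 182 CPM and the FR 88.8, 149.5, 109, 76.6 and 646, so that 4 FR libraries lay below SM and 1 far above it. The difference was 0.35 (SE 0.28, adjusted p = 0.54) with embryo 5, -0.22 (adjusted p = 0.77) without the embryo block, and 0.83 (adjusted p = 0.015) without embryo 5. The same FR library held 23.4 CPM of Ets2, the lowest of the 100 libraries. Whether its tissue differed was not tested.

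Over the 12 comparisons of SM with an OF, Erg was called higher in SM in 10 and lower in none (adjusted p under 0.05). It was higher in 57 of 60 pairs of regions from 1 embryo, and the fitted difference was above 0 in all 12, apart from the reversal without the block just given. Over all genes and comparisons 19% of all tests were called, and 8.16% of all tests were called with SM higher, and 294 genes (1.49%) were called higher in at least 10 of the 12. The study had itself reported Erg and Ets2 as SM-enriched across calvarial sutures from its captured libraries. Neither gene was thus a blind choice to set beside these shares. In 7 of the 12 the groups did not overlap with SM higher. Over all gene comparisons 17.6% did not overlap, 7.85% with SM higher and 9.7% with OF higher. The share called over all genes was lowest in the coronal suture at E18.5 against FR (3.51%) and in the frontal suture (8.86% at E16.5, 11.3% at E18.5), where Erg gave its 2 misses and 1 of its calls, and ran from 12% to 33.4% in the others. Leaving out 1 embryo of each group in turn gave 9, 9, 8, 8 and 11 calls for Erg, with the difference above 0 in 12 of 12 each time.

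Ranked by group mean, Erg was highest in coronal SM at E16.5 (891 ± 191 CPM), followed by coronal SM at E18.5 (366 ± 72.4), and both steps exceeded the spread. In the second coronal libraries SM held 194 to 265 CPM at E16.5 and 182 to 253 at E18.5. These ranges overlap, so that the step between the ages of coronal SM holds for the first libraries only. Coronal FR (244 ± 56.3 at E16.5, 216 ± 44.2 at E18.5), frontal FR at E18.5 (214 ± 243) and frontal SM (184 ± 26.5 at E18.5, 158 ± 51.1 at E16.5) did not differ from their neighbours beyond it. The lowest 5 groups were the 4 lambdoid OF groups (23.9 ± 10.1 to 29.0 ± 12.01) and sagittal PA at E18.5 (37.7 ± 10.5).

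Fli1, the closest relative of Erg among the 5, followed it only in part. Sagittal SM at E16.5 held 24.7, 26.7, 22.5, 33.0 and 29.7 CPM of Fli1 and the PA 11.6, 12.47, 12.6, 8.92 and 13.6. No library overlapped (log2 difference 1.20, SE 0.23, adjusted p = 4.1e-05). Coronal SM at E18.5 held 14.1, 11.2, 20.7, 17.7 and 18.55 CPM against 15.3, 10.8, 7.38, 7.94 and 9.87 in PA, with overlap (0.67, SE 0.23, adjusted p = 0.032). That call was lost without embryo 3 (0.49, adjusted p = 0.22), 4 (0.59, 0.15) or 5 (0.66, 0.069) and without the low-count filter (0.68, 0.11). The other 10 comparisons were not called, with log2 differences of -0.27 to 0.55. The highest of these, coronal SM less FR at E16.5 (0.55, adjusted p = 0.068), passed without embryo 3 (0.73, 0.035) or 5 (0.76, 0.020), with DESeq2 (0.56, 0.043), with limma-voom (0.63, 0.030) and without the embryo block (0.62, 0.031). SM exceeded OF in 44 of 60 pairs. The 2 calls of Fli1 in 12 comparisons stand beside 19% of all tests called, 8.16% with SM higher.

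The levels of Fli1 were low and even. They ran from 10.3 ± 3.14 CPM in coronal PA at E18.5 to 32.4 ± 8.26 in frontal SM at E16.5. Frontal SM at E18.5 (27.6 ± 5.91) and sagittal SM at E16.5 (27.3 ± 4.11) and E18.5 (25.2 ± 1.35) came next. Then followed lambdoid SM at E18.5 (24.3 ± 6.27), frontal FR at E16.5 (24.2 ± 3.801) and E18.5 (23.3 ± 4.69), and lambdoid IP at E16.5 (23.1 ± 3.17) and E18.5 (22.4 ± 4.85). Lambdoid PA at E18.5 (22.8 ± 3.61), lambdoid SM at E16.5 (22.1 ± 3.10), sagittal PA at E18.5 (20.3 ± 3.88) and coronal FR at E18.5 (20.04 ± 5.05) lay close to them. Lambdoid PA at E16.5 held 18.3 ± 3.36 CPM. Below it came coronal SM at E16.5 (17.04 ± 7.73) and E18.5 (16.4 ± 3.79), coronal PA at E16.5 (12.4 ± 3.82), sagittal PA at E16.5 (11.8 ± 1.78) and coronal FR at E16.5 (11.1 ± 3.95). Only the step below coronal SM at E18.5 exceeded the spread of its neighbours, by a narrow margin (0.42 against an SD of 0.40, log2 scale).

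Ets2 was the second gene that was mostly higher in SM. Coronal SM at E16.5 held 90.2, 154, 107, 127 and 100.03 CPM against 70.2, 72.5, 60.5, 56.8 and 69.0 in FR and 71.4, 41.7, 59.8, 38.8 and 52.2 in PA. Each SM library exceeded each OF library (log2 difference from FR 0.82, SE 0.16, adjusted p = 5.8e-05). The difference from PA was 1.14 (SE 0.16, adjusted p = 6.6e-08). At E18.5 coronal SM held 124, 154, 131, 92.9 and 94.9 CPM and PA 48.4, 56.2, 48.8, 47.8 and 50.6, a separation of 1.23 (SE 0.16, adjusted p = 1.7e-08). The FR held 80.5, 78.4, 94.0, 81.7 and 78.3 CPM. The FR of embryo 3 passed the lowest SM library, and the difference was 0.51 (SE 0.16, adjusted p = 0.054). That one was called without embryo 5 (0.57, adjusted p = 0.041), with DESeq2 (0.53, 0.020), limma-voom (0.52, 0.0030) or median-ratio scaling (0.53, 0.041), and without the embryo block (0.53, 0.040).

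In the lambdoid suture, Ets2 did not differ detectably between the regions at E16.5 and was higher in SM at E18.5. At E16.5 SM held 56.3 ± 12.49 CPM, IP 59.5 ± 8.21 and PA 58.5 ± 7.10 (log2 differences -0.09 and -0.08, SE 0.16 each, adjusted p = 0.84 and 0.80). At E18.5 SM held 85.2, 74.7, 60.6, 74.8 and 80.6 CPM, above every IP library (55.1, 35.8, 42.1, 33.0 and 45.1) with a difference of 0.85 (SE 0.16, adjusted p = 4.1e-05). PA held 64.4, 54.8, 47.9, 42.3 and 54.4 CPM and overlapped SM (0.52, SE 0.16, adjusted p = 0.011). That call was lost without embryo 4 (0.48, adjusted p = 0.057). Whether the difference itself changed with age is tested below over all sutures together, not for this suture.

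Sagittal SM held 73.2, 61.9, 76.1, 93.9 and 92.9 CPM of Ets2 at E16.5 against 54.1, 48.3, 54.4, 53.4 and 67.97 in PA (0.51, SE 0.16, adjusted p = 0.015). The call was lost without embryo 4 (0.47, adjusted p = 0.088) and without the low-count filter (0.50, 0.063). At E18.5 SM held 78.6, 83.8, 89.5, 73.2 and 88.1 CPM and PA 60.8, 62.1, 61.4, 66.8 and 69.4, which did not overlap although the difference of 0.36 (SE 0.16) had an adjusted p of 0.083. It passed with DESeq2 (0.42, adjusted p = 0.030) and with median-ratio scaling (0.42, 0.038). Frontal SM at E18.5 held 79.4, 73.7, 69.4, 66.5 and 81.8 CPM and FR 59.7, 55.5, 74.1, 50.6 and 23.4. This difference of 0.56 (SE 0.16, adjusted p = 0.013) rested on the last FR library. It fell to 0.28 (adjusted p = 0.46) without embryo 5 and was lost with limma-voom (0.48, 0.10). At E16.5 frontal SM held 71.7 ± 11.98 CPM and FR 57.7 ± 8.48 (0.31, adjusted p = 0.30).

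In all, Ets2 was called higher in SM in 7 of 12 comparisons and lower in none, and SM was the higher region in 51 of 60 pairs. Over all genes 19% of tests were called, 8.16% with SM higher. The groups of Ets2 did not overlap in 5 of the 12, against 17.6% of all gene comparisons, 7.85% with SM higher. Ranked by group mean, coronal SM at E18.5 (119 ± 25.8 CPM) and E16.5 (116 ± 25.3) were highest, and the step from these to sagittal SM at E18.5 (82.7 ± 6.77) was the only one of 19 beyond the spread. Coronal PA at E18.5 (50.4 ± 3.43) and lambdoid IP at E18.5 (42.2 ± 8.67) were lowest in the first libraries. The second libraries of coronal PA at E18.5 held 65.6 to 102 CPM.

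**Figure D2:**
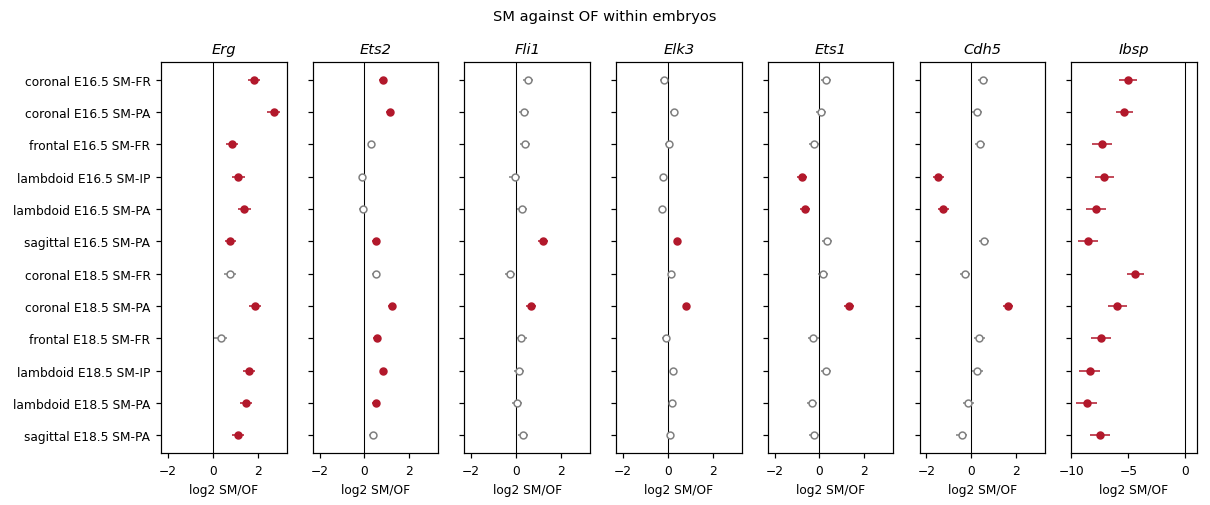
Log2 difference of SM less OF (points) with its SE (bars) in the 12 comparisons of suture, age and OF, for the 5 genes, the endothelial cadherin gene Cdh5 and the osteoblast gene Ibsp (on a wider axis). Filled points mark an adjusted p under 0.05. Erg lies above 0 in each comparison (0.35 to 2.73), Ets2 in 10 of 12, and Ets1 lies on both sides (-0.80 to 1.31).

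Ets1, the other gene of the founding pair, had no common direction. Lambdoid SM at E16.5 held 20.04, 21.6, 20.6, 27.3 and 15.7 CPM, below each IP library (30.2, 27.9, 38.8, 49.2 and 36.2) and below the PA of the same embryo throughout (28.5, 36.3, 41.3, 34.9 and 23.3). SM was lower by 0.80 than IP (log2 difference -0.80, SE 0.22, adjusted p = 0.0098) and by 0.64 than PA (-0.64, SE 0.22, adjusted p = 0.027). In coronal SM at E18.5 Ets1 stood at 70.8, 96.7, 47.6, 56.0 and 57.1 CPM, above each PA library (21.97, 22.9, 20.5, 27.0 and 40.9), and was higher by 1.31 (SE 0.22, adjusted p = 8.1e-06). In the second coronal libraries the last difference was 0.22 (adjusted p = 0.70), and in the first libraries of the same samples 1.36 (adjusted p = 0.070). The call against lambdoid IP was lost without embryo 1 (-0.77, adjusted p = 0.057), 4 (-0.70, 0.12) or 5 (-0.64, 0.065). The one against lambdoid PA was lost with DESeq2 (-0.51, adjusted p = 0.080), limma-voom (-0.62, 0.10), median-ratio scaling (-0.51, 0.095) or no low-count filter (-0.61, 0.069), and without embryo 1 (-0.61, 0.10), 2 (-0.61, 0.066), 3 (-0.51, 0.14) or 4 (-0.63, 0.12). The other 9 comparisons were not called (-0.34 to 0.35), and SM was higher in 27 of 60 pairs. Ets1 was thus called higher in 1 and lower in 2 of 12 comparisons, beside 8.16% of all tests called higher and 10.9% lower.

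The lowest group means of Ets1 were those of the sagittal suture and of frontal SM at E18.5 (15.8 ± 4.01 CPM). The sagittal groups held 8.37 ± 1.32 CPM in the younger PA, 10.8 ± 2.65 in the younger SM, 14.3 ± 3.25 in the older SM and 17.02 ± 3.71 in the older PA. The other frontal groups held 18.9 ± 3.88 (FR, E18.5), 21.8 ± 4.23 (SM, E16.5) and 25.5 ± 3.38 (FR, E16.5). The highest were coronal SM (65.6 ± 19.3) and FR (57.3 ± 6.56) at E18.5. On the log2 scale the step below these 2 groups was 0.37, just past the larger SD of 0.36. Lambdoid PA at E18.5 (45.4 ± 12.7), coronal SM at E16.5 (37.4 ± 13.1) and lambdoid SM at E18.5 (35.9 ± 9.24) followed, and coronal PA stood at 33.7 ± 11.2 at E16.5 and 26.7 ± 8.32 at E18.5. Lambdoid IP held 36.5 ± 8.39 CPM at E16.5 and 29.2 ± 5.22 at E18.5. Lambdoid PA at E16.5 held 32.9 ± 7.05, coronal FR at E16.5 held 31.0 ± 17.1 and lambdoid SM at E16.5 held 21.1 ± 4.15.

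Elk3 differed least. In coronal SM at E18.5 it stood at 91.1, 129, 92.5, 98.3 and 106 CPM, above each PA library (48.1, 47.9, 69.8, 58.4 and 71.2), with a log2 difference of 0.81 (SE 0.15, adjusted p = 3.5e-05). Sagittal SM at E16.5 held 64.2, 63.2, 53.6, 56.7 and 63.3 CPM, above each PA library (48.4, 42.1, 43.4, 46.4 and 45.9), and the difference of 0.41 (SE 0.15) had an adjusted p of 0.046. That call was lost with any 1 embryo left out (0.36 to 0.47, adjusted p from 0.072 to 0.11), with limma-voom and without the low-count filter. The remaining 10 comparisons lay between -0.26 and 0.26 and were not called. Of these, coronal SM less PA at E16.5 was called under 2 of 13 alternatives. SM was the higher region in 36 of 60 pairs. The 2 calls of Elk3 in 12 comparisons stand beside 19% of all tests called, 8.16% with SM higher. Of the 20 groups, coronal SM at E18.5 (103 ± 15.3 CPM), coronal FR at E18.5 (93.4 ± 11.6) and E16.5 (91.4 ± 25.6) and coronal SM at E16.5 (79.1 ± 10.5) were highest. Frontal FR (69.2 ± 3.21 at E16.5, 75.7 ± 8.84 at E18.5), frontal SM (72.3 ± 13.6 and 70.8 ± 6.77), sagittal SM (60.2 ± 4.74 and 74.6 ± 9.53) and sagittal PA at E18.5 (68.5 ± 2.54) lay in the middle. Coronal PA held 66.0 ± 16.8 and 59.1 ± 11.3 CPM at the same ages, and the lambdoid groups at E18.5 held 59.7 ± 14.2 (SM), 52.4 ± 5.40 (PA) and 50.3 ± 6.17 (IP). The 3 lambdoid groups at E16.5 were lowest, with 44.6 ± 4.83 (PA), 43.1 ± 6.67 (IP) and 37.3 ± 4.00 CPM (SM), and sagittal PA at E16.5 (45.2 ± 2.52) stood just above them.

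Averaged over the 12 comparisons, SM exceeded OF by 1.34 for Erg (SE 0.09, adjusted p = 9.7e-21) and by 0.55 for Ets2 (SE 0.05, adjusted p = 3.7e-14). Fli1 was higher by 0.32 (SE 0.07, adjusted p = 2.2e-04) and Elk3 by 0.12 (SE 0.05, adjusted p = 0.036), while Ets1 stood at -0.00 (95% interval -0.15 to 0.14, adjusted p = 0.996). This test called 55.9% of all genes, 28.3% with SM higher, and the median of all genes was 0.05, or 0.12 with median-ratio scaling. The Elk3 call was lost without embryo 2 (0.10, adjusted p = 0.10) or 5 (0.13, 0.056) and without the low-count filter (0.13, 0.12). No member was called for a change of the SM and OF difference between the ages (1.77% of genes were called). The lowest adjusted p of the 5 there was 0.29, for Ets2 (log2 change 0.24).

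The difference between SM and OF varied among the sutures for Erg (adjusted p = 6.9e-04), Ets1 (0.0029) and Ets2 (0.0019), but not by this test for Fli1 (0.094) or Elk3 (0.17), with 19.9% of all genes called. The Ets2 call was lost without replicate 2 (adjusted p = 0.091) and the Ets1 call without replicate 4 (0.066). For Erg the mean difference was 1.81 in the coronal (SE 0.15), 1.42 in the lambdoid (SE 0.16), 0.96 in the sagittal (SE 0.19) and 0.60 in the frontal suture (SE 0.19), each called. Without embryo 5 of each group the frontal value was 0.79 (adjusted p = 3.0e-04). For Ets2 it was 0.93 in the coronal suture and 0.30, 0.44 and 0.44 in the lambdoid, frontal and sagittal sutures, each called, but the frontal call was lost without embryo 5 (0.25, adjusted p = 0.18). Ets1 was higher in coronal SM (0.47), lower in lambdoid SM (-0.37) and not called in the frontal (-0.25) and sagittal (0.05) sutures. Set against the mean of the other 3 sutures, the coronal difference was larger by 0.82 for Erg, 0.53 for Ets2 and 0.66 for Ets1 (adjusted p = 9.5e-04, 3.5e-04 and 0.0016), a test that called 20.1% of all genes. These were 0.64, 0.66 and 0.76 without embryo 5, and 0.77, 0.47 and 0.63 with the second coronal libraries in place of the first, each called. With those libraries Elk3 also differed among the sutures (adjusted p = 0.020), and its coronal difference was larger than the others by 0.34 (adjusted p = 0.014), against 0.18 (adjusted p = 0.24) with the first. The fit with second libraries kept the first where no second exists, so that some coronal embryos held libraries of both sets. Of all genes, 35.6% were called in the coronal, 18.4% in the frontal, 40% in the lambdoid and 35.4% in the sagittal mean.

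Markers of other cell types moved with some of these comparisons. Over the 12 comparisons, the endothelial cadherin Cdh5 (0.04), Pecam1 (0.17), the VEGF receptor Kdr (0.11) and Emcn (0.02) were not called. Of 20 endothelial genes 7 were called higher and 0 lower (median 0.09), beside 10 of 12 myeloid genes (median 0.55, Ptprc 0.84, Csf1r 0.24) and 8 of 9 mural genes (median 0.88, Rgs5 0.88). Of 9 chondrocyte genes that passed the filter 5 were higher and 1 lower (median 1.22, Col2a1 1.27). The part of these cells in the differences of the 5 genes was not tested, beyond the values that follow.

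The endothelial genes moved with Ets1 in the 3 comparisons where it was called, and with Elk3 in 1 of them. In coronal SM at E18.5 against PA, 20 of 20 endothelial genes were higher (median 1.94). Their summed level was 443 to 567 CPM in SM and 136 to 195.8 in PA, and all 5 members were called higher there, beside 18% of all genes called in either direction. In lambdoid SM at E16.5, 12 of 20 were lower than in IP and 12 lower than in PA (medians -1.48 and -1.36), with sums of 149 to 237 CPM in SM, 275 to 499 in IP and 256 to 370 in PA. In sagittal SM at E16.5, where Elk3 was also called, 1 of 20 was higher than in PA (median 0.57), and the sums overlapped (164 to 257 CPM in SM, 116 to 205 in PA). In those 2 lambdoid comparisons at E16.5 Erg was higher in SM by 1.15 and 1.42, and Ets2 stood at -0.09 and -0.08. Where Ets1 was not called, its sign was mostly that of the mean endothelial sums. Exceptions were frontal SM (678 CPM against 534 in FR at E16.5, 434 against 384 at E18.5, Ets1 -0.23 and -0.27) and coronal SM at E18.5 (495 against 545 in FR, Ets1 0.17). Coronal SM, FR and PA at E16.5 held mean endothelial sums of 508, 344 and 357 CPM and mural sums of 620, 395 and 354, with overlap. Within groups, the deviation of a library from its group mean was set against that of the summed endothelial genes over the 100 libraries (10 relations computed, permutation within groups, 100000 resamples). The permutation treated the libraries of an embryo as independent. Pearson's r was 0.53 for Elk3, 0.52 for Fli1 and 0.39 for Ets1 (adjusted p = 0.00010, 0.00010 and 0.0034). Spearman's rho was 0.52, 0.51 and 0.50 (adjusted p = 6.7e-05, 5.0e-05 and 5.0e-05), and r was 0.56, 0.51 and 0.50 without the 2 libraries farthest from the median. For Ets2, r was 0.28 (adjusted p = 0.038, rho 0.25, adjusted p = 0.060) and for Erg 0.25 (adjusted p = 0.090, rho 0.24, adjusted p = 0.061). By suture, r for Erg was 0.53 in the coronal and 0.42 in the sagittal suture but -0.03 in the frontal and 0.08 in the lambdoid. It was 0.45 to 0.72 in the 4 sutures for Elk3, 0.19 to 0.74 for Fli1, 0.18 to 0.74 for Ets1 and 0.04 to 0.44 for Ets2, whose highest was the lambdoid value. None of the 5 genes was called against the summed myeloid genes (r from -0.08 to 0.19). By suture these r ran wider, from -0.40 for Erg in the frontal suture to 0.73 for Fli1 in the sagittal, with 0.58 for Ets1 and 0.46 for Ets2 in the frontal. The values by suture were not tested.

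Of 21 other ETS genes 13 passed the filter, and 4 were higher and 4 lower in SM over the 12 comparisons (median 0.04, all genes 0.05), beside 28.3% of all genes higher and 27.6% lower. Etv5, a target and mediator of FGF signalling, moved against Erg: it was lower in SM by 0.96 (log2 difference -0.96, SE 0.08, adjusted p = 2.7e-15) and called lower in 10 of the 12 comparisons. Its relative Etv1 was higher (0.63, SE 0.10, adjusted p = 2.6e-07, called in 4 of 12). Spi1, which encodes the myeloid factor PU.1, was higher by 0.68 (SE 0.16, adjusted p = 2.3e-04) at a mean level of 2.69 CPM. The differences of Gabpa (-0.20), Elf1 (0.15) and Etv6 (0.13), all called, were small. With the embryo as the unit, Gabpa fell with age (log2 change -0.23, adjusted p = 0.0072) and Elk4 rose (0.21, adjusted p = 8.6e-05, limma). Among the partners and targets of the ERK pathway, Jun, a partner of ETS factors at composite sites, was higher in SM by 0.70 (SE 0.07, adjusted p = 3.6e-12, called in 9 of 12). The immediate-early genes Fos (-1.031) and Egr1 (-0.77) and the factor gene Srf (-0.24) were lower.

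Between E16.5 and E18.5 the 5 genes gave 9 calls in 50 region comparisons, 8 of them higher and 1 lower at E18.5. Of all gene comparisons 8.57% were called, 4.43% higher and 4.14% lower (edgeR quasi-likelihood test, 5 embryos per age). Erg fell in coronal SM, from 756, 747, 943, 809.8 and 1202 to 344, 269, 403, 464 and 350.3 CPM. No library overlapped (log2 difference -1.28, SE 0.30, adjusted p = 7.3e-04, unadjusted exact permutation p = 0.0079). The SM libraries of the younger age had a median Spearman correlation of 0.863 to 0.884 with the others of their group and 19584 to 22640 genes detected, and those of the older age 0.922 to 0.943 and 21697 to 25162. The part of this in the fall of Erg was not tested. The second libraries of the same suture gave -0.09 (below). In frontal FR the fitted rise of Erg by 1.32 (SE 0.31, adjusted p = 0.0042, exact p = 0.14) rested on embryo 5, and without that replicate it was 0.28 (adjusted p = 0.86). It was also lost with limma-voom (0.73, adjusted p = 0.18). In the other 8 regions Erg was not called, with differences of -0.62 (sagittal PA) to 0.45 (lambdoid SM). In coronal PA, -0.57 (adjusted p = 0.17) became -0.72 (0.045) without replicate 5.

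Ets1 rose in coronal SM from 37.4 ± 13.1 to 65.6 ± 19.3 CPM (0.81, SE 0.23, adjusted p = 0.0058), which turned to -0.23 (adjusted p = 0.85) in the second coronal libraries. The first libraries of the same samples (3 per age) gave 0.51 (adjusted p = 0.60). In coronal FR Ets1 rose from 31.0 ± 17.1 to 57.3 ± 6.56 (0.89, SE 0.23, adjusted p = 0.0030). There the second libraries gave 0.58 (adjusted p = 0.32) and the first of the same samples 0.65 (adjusted p = 0.40). In sagittal PA it rose from 10.3, 9.10, 7.31, 7.07 and 8.09 to 18.7, 11.5, 18.9, 15.1 and 20.9 CPM, without overlap (1.02, SE 0.24, adjusted p = 0.0080). Beside that turn, the call in coronal SM was lost under 2 of 13 alternatives, among them without replicate 1 (0.65, adjusted p = 0.087). The sagittal one was lost without replicate 4 (1.029, adjusted p = 0.076) and with limma-voom (1.00, 0.11). Elk3 rose in lambdoid SM from 36.5, 38.0, 42.4, 38.1 and 31.3 to 56.3, 50.9, 82.6, 46.1 and 62.7 CPM (0.68, SE 0.14, adjusted p = 0.0012). In sagittal PA it rose from 48.4, 42.1, 43.4, 46.4 and 45.9 to 70.4, 67.5, 72.0, 66.1 and 66.7 CPM (0.60, SE 0.14, adjusted p = 0.0080). Neither pair of groups overlapped. In coronal SM Elk3 rose by 0.39 (SE 0.14, adjusted p = 0.031). Of 13 alternatives 7 lost that call, among them those without replicate 1, 2, 4 or 5 (0.33 to 0.40, adjusted p from 0.063 to 0.13). Fli1 rose in coronal FR by 0.86 (SE 0.23, adjusted p = 0.0038). Of 13 alternatives 4 lost this call, among them those without replicate 4 or 5 (0.71 and 0.62, adjusted p = 0.052 and 0.056). In the second coronal libraries the last 2 changes were 0.09 for Elk3 (adjusted p = 0.96) and 0.18 for Fli1 (adjusted p = 0.91). In the first libraries of the same samples (3 per age) they were 0.15 and 0.72, likewise not called (adjusted p = 0.86 and 0.40). Ets2 was called in no region (-0.50 to 0.42).

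Endothelial genes were also called higher in some of these regions. In sagittal PA 11 of 20 were called higher (median 1.78), in lambdoid SM 9 (median 1.20) and in coronal FR 8 (median 1.06), with sums of 116 to 205 CPM at E16.5 and 309 to 489 at E18.5 in sagittal PA. In coronal FR the mural sum was 210 to 580 CPM at E16.5 and 804 to 1380 at E18.5, and the myeloid sum 57.5 to 96.4 and 143 to 166. The osteoblast sum there was 8748 to 16678 and 3468 to 7315. The median Spearman correlation of these FR libraries with their group was 0.846 to 0.892 at E16.5 and 0.926 to 0.957 at E18.5. In coronal SM, where Ets1 and Elk3 were called higher, 1 was higher and 1 lower (mean sum 508 CPM at E16.5 and 495 at E18.5), while 8 of 12 myeloid genes were higher. The chondrocyte sum there was 93.8 to 140 CPM at E16.5 and 251 to 339 at E18.5, and the mean osteoblast sum 1608 and 932. The part of such cells and of the libraries' quality in the rises of Ets1, Elk3 and Fli1 was not tested. The ages did not overlap in 6 of the 50 region comparisons, 5 of them higher at E18.5 (Ets1 in sagittal PA, Elk3 in lambdoid SM and sagittal PA, and, not called, Fli1 in sagittal PA and Ets2 in coronal FR) and 1 lower (Erg in coronal SM). Of all gene comparisons 7.17% did not overlap, 3.61% higher and 3.56% lower. Over all genes, 27.1% were called in coronal SM and 24.4% in coronal FR, but only 2.96% in lambdoid SM and 1.6% in sagittal PA. In frontal FR, where Erg was called, it was 4.34%, and in frontal SM, where no member was, 2.33%. In the other 4 regions 0.288% (lambdoid IP) to 20.6% (coronal PA) of genes were called.

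With the embryo as the unit and the sutures averaged, Ets1 rose by 0.31 (SE 0.08, adjusted p = 0.0035, limma over 40 embryos) and Elk3 by 0.28 (SE 0.04, adjusted p = 4.3e-06). Erg (-0.11, 95% interval -0.30 to 0.07), Fli1 (0.13, -0.04 to 0.30) and Ets2 (0.05, -0.06 to 0.16) were not called, and 21.6% of all genes were. Without replicate 1 the Ets1 value was 0.25 (adjusted p = 0.060). The averages hide sutures that went opposite ways. Erg fell in the coronal suture by 0.78 and rose in the frontal by 0.54, both called, but the frontal call was lost without replicate 5 (0.31, adjusted p = 0.31), whose FR library stood apart, and without replicate 2, 3 or 4 (0.46 to 0.58, adjusted p from 0.074 to 0.16). In the second coronal libraries the changes of Erg were -0.09 in SM, 1.01 in FR and 0.22 in PA, none called. Ets1 rose in the coronal (0.60) and sagittal (0.70) sutures and stood at -0.47 in the frontal, each called. The coronal call was lost without replicate 1 (0.46, adjusted p = 0.054) or 5 (0.43, 0.057), the sagittal without replicate 3 (0.59, 0.058) and the frontal without replicate 1, 2, 3 or 5 (-0.52 to -0.41, adjusted p from 0.053 to 0.17). Of all genes, 39.2% were called in the coronal suture, 14.3% in the frontal, 6.32% in the lambdoid and 3.83% in the sagittal.

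**Figure D3:**
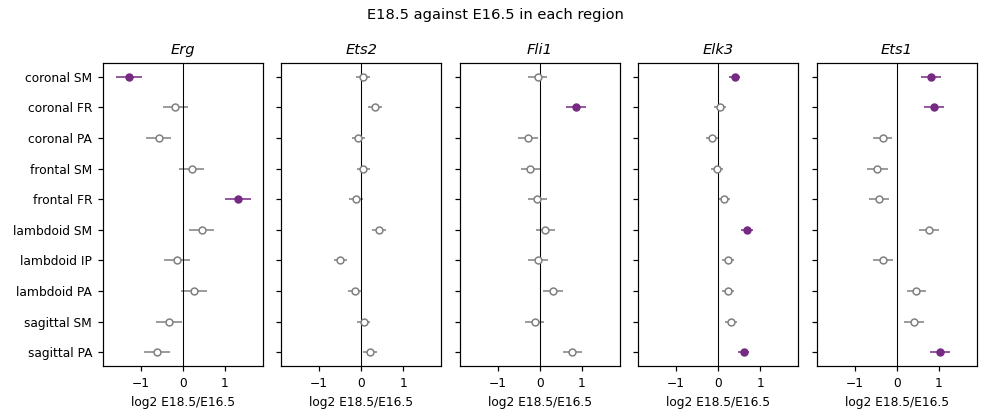
Log2 difference of E18.5 less E16.5 (points) with its SE (bars) for each gene in the 10 regions. Filled points mark an adjusted p under 0.05, which 9 of 50 reach. Erg in coronal SM is lowest (-1.28) and Erg in frontal FR, which rests on 1 library, is highest (1.32).

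In the second coronal libraries (3 samples per group) Erg and Ets2 were again called higher in SM than in PA at both ages, and Erg higher than in FR at E16.5, though at other levels. Erg in the second libraries was 194, 265 and 233 CPM in SM at E16.5, where the first libraries of the same samples held 747, 744 and 943. At E18.5 they held 253, 182 and 206 against 347, 400 and 463. The fit of the second set alone, and that of the first libraries of the same samples, had no embryo block. At E18.5 the FR and SM samples of the second set were not all of the same embryos. Within the second set, Erg was higher in SM than in FR by 1.68 (adjusted p = 0.0012) and than in PA by 2.29 (adjusted p = 3.4e-05) at E16.5, and than in PA by 1.99 (adjusted p = 1.8e-04) at E18.5. The E18.5 difference from FR was 0.59 (adjusted p = 0.54). Ets2 was higher in SM than in PA by 1.06 at E16.5 and 0.99 at E18.5 (adjusted p = 0.0049 and 0.0087). It was not called against FR at E16.5 (0.52, adjusted p = 0.29) or at E18.5 (0.49, adjusted p = 0.50).

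Several other values differed between the sets. Erg in coronal SM changed by -0.09 (SE 0.29, adjusted p = 0.97) between the ages in the second libraries, against -1.01 (SE 0.37, adjusted p = 0.22) in the first libraries of the same samples. In FR the change was 1.01 (SE 0.30, adjusted p = 0.082) in the second and -0.31 (SE 0.36, adjusted p = 0.73) in the first. Ets1 was called higher in SM than in PA at E16.5 in the second libraries alone (1.08, adjusted p = 0.014) and was not at E18.5 (0.22, adjusted p = 0.70). In the first libraries of the same samples these were 0.27 (adjusted p = 0.76) and 1.36 (adjusted p = 0.070), neither called. The E18.5 differences between SM and PA of Fli1 (0.87, adjusted p = 0.18) and Elk3 (0.69, adjusted p = 0.12) were not called in the second set, nor in the first libraries of the same samples (0.81 and 0.72, adjusted p = 0.58 and 0.24). Elk3 in SM less FR at E16.5 stood at 0.35 in the second and -0.32 in the first, neither called. The difference between the sets was not tested. Of all genes, 1.04% to 7.21% were called in the 4 SM comparisons of the second set.

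**Figure D4:**
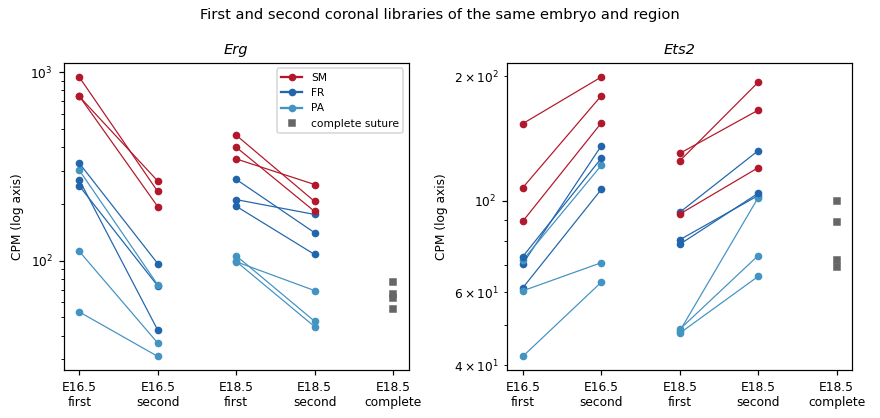
Erg and Ets2 in CPM (log axis) in the first and second coronal libraries, where a line joins the 2 libraries of 1 sample (18 samples), beside the complete coronal sutures of E18.5 (squares, 4 libraries). Each Erg line falls from the first to the second library and each Ets2 line rises, while SM stays mostly above FR and PA.

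In complete sutures of E18.5, labelled as normalization controls (4 libraries per suture), Erg stood at 55.6 to 77.1 CPM in the coronal, 61.2 to 96.7 in the frontal, 45.3 to 78.4 in the lambdoid and 54.1 to 92.8 in the sagittal suture. The labels name no embryo for them, so that the 4 libraries of a suture may not be separate animals. Each of the 4 sets of controls holds all 4 sutures, and within a set Erg was lower in the coronal than in the frontal suture in 4 of 4. Ets1 was highest in the coronal (38.3 to 60.7 CPM) and lowest in the frontal suture (19.3 to 33.02) in 4 of 4 sets, with the sagittal suture (24.6 to 37.5) above the frontal. Ets2 stood at 65.5 to 100.1 CPM over the 16 libraries. The sets of libraries and the captured tissue cannot be told apart here.

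Single cells of the coronal suture placed the 5 genes in cell classes. Cells with more than 800 genes numbered 497 of 1530 barcodes (library 1) and 359 of 1482 (library 2) at E16.5. At E18.5 they numbered 2625 of 2628 and 1624 of 1999. The libraries of the ages differ in capture chemistry and in depth, with medians of 2504 and 2190 unique molecular identifiers (UMIs) per cell against 18252 and 7203.5, so the ages were not compared. At most 5 barcodes were shared by a pair of libraries. Endothelial cells were those with a UMI of Cdh5 or Pecam1 (40, 50, 444 and 201), and mesenchymal cells those without a UMI of these or of the leukocyte genes Ptprc and Tyrobp, with a UMI of a mesenchymal transcription factor or Pdgfra and of a fibrillar collagen gene (306, 162, 1021 and 871). No doublet caller and no correction for RNA free in the suspension was run. Whether cells that hold markers of several types are doublets was not tested. At E16.5, 36 of 40 and 49 of 50 endothelial cells held 3 or more other endothelial genes, and 4 and 3 of them held Ptprc or Tyrobp. At E18.5 only 40.5% and 28.4% held 3 or more, and 52.5% and 37.8% held Ptprc or Tyrobp. Cells with Ptprc or Tyrobp and neither endothelial marker (1144 and 423 at E18.5) were not a clean leukocyte class at that age. The osteoblast gene Ibsp had a UMI in 99.7% and 98.6% of them, and in 96.9% or more of the cells of every other class at E18.5, so that a single UMI of it does not set a class apart there. The osteoblast genes of the Ptprc or Tyrobp cells summed to 4262 and 10638 CPM, above the myeloid genes (2748 and 2002). In the endothelial cells of E18.5 the osteoblast genes summed to 2808 and 6057 CPM, above the endothelial genes (1293 and 1943), so that this class was not clean either. Cells with both Cdh5 and Pecam1 (26, 32, 65 and 33) were therefore taken as a stricter class.

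Ets1, Fli1, Ets2 and Elk3 were higher in endothelial than in mesenchymal cells, and Erg was not called higher by the wider class. The wider endothelial class held 50% to 73.7% of all UMIs of these 4 genes in the E16.5 libraries and 31.3% to 47.4% in the E18.5 libraries, whose classes were less clean. At E18.5 the endothelial share was not always the largest. The Ptprc or Tyrobp cells of library 1 held 42.8% of the UMIs of Ets2, 48.1% of Fli1 and 40.3% of Elk3, and the mesenchymal cells of library 2 held 37.7% of Elk3, beside 36.6% in endothelial cells. Of the Erg UMIs at E18.5, endothelial cells held 21.6% and 22.4%, mesenchymal cells 36.9% and 51.1%, and Ptprc or Tyrobp cells 41.4% and 24.4%. These shares also depend on the number and depth of the cells in a class. Endothelial cells were 40 of 497 and 50 of 359 cells at E16.5. At E18.5 they were 444 of 2625 and 201 of 1624, beside 1021 and 871 mesenchymal and 1144 and 423 Ptprc or Tyrobp cells. Summed over endothelial cells of the 4 libraries (E16.5 first), Ets1 stood at 300.1, 203, 31.4 and 53.3 CPM of the class's UMIs, against 11.7, 33.9, 10.1 and 12.9 in mesenchymal cells. Fli1 stood at 211, 154, 22 and 35.0 against 2.91, 10.6, 8.70 and 9.27. Elk3 stood at 281, 302, 56.4 and 87.1 against 25.3, 42.4, 28.1 and 32.4. Each gene was higher in endothelial cells in each library. The log2 differences were 2.25 for Ets1 (SE 0.32, adjusted p = 4.7e-04), 2.23 for Fli1 (SE 0.43, adjusted p = 0.0045), 1.76 for Elk3 (SE 0.31, adjusted p = 0.0023) and 1.80 for Ets2 (SE 0.29, adjusted p = 0.0011), in edgeR on summed UMIs with the library as a block. Of 14543 genes 7.51% were called. Ets2 stood at 243, 297, 54.5 and 72.3 CPM in endothelial and 20.4, 50.9, 24.9 and 23.3 in mesenchymal cells.

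Erg had 2, 6, 259 and 78 UMIs in endothelial cells, or 12.8, 33.0, 21.9 and 30.3 CPM. In mesenchymal cells it had 11, 0, 443 and 178 UMIs, or 10.7, 0, 22.8 and 25 CPM, where the 0 of 471755 UMIs allows up to 6.36 CPM (3 UMIs, counting error only). The log2 difference was 0.13 (SE 0.32, 95% interval -0.49 to 0.75, adjusted p = 0.91). With both markers required, Erg was higher in endothelial cells by 1.19 (SE 0.28, adjusted p = 2.2e-04, with 25.1% of genes called) and by 1.19 at E18.5 alone (adjusted p = 4.5e-06). The other 4 genes were then higher by 2.85 to 3.65. At E16.5 alone, with 20 Erg UMIs in all cells of both libraries, the difference was not detectable at this depth (1.68, adjusted p = 0.26).

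Within the mesenchyme, Erg was called lower in osteogenic than in other cells, a call that some alternatives lost. Mesenchymal cells with Sp7, or with Ibsp at or above 1000 CPM in the cell, were taken as osteogenic (33, 44, 522 and 583) and the rest as other mesenchymal cells (273, 118, 499 and 288). The chondrocyte genes summed to 1546, 5145, 1833 and 400 CPM in other mesenchymal cells and 102, 564, 652 and 362 in osteogenic cells. The mural genes summed to 543, 893, 743 and 735 against 238, 269, 782 and 475. The part of such cells in the differences below was not tested. At E18.5 Erg stood at 33.2 (95% Poisson interval 29.4 to 37.4) and 43.3 (34.8 to 53.3) CPM in other mesenchymal cells. In osteogenic cells it stood at 15.1 (12.9 to 17.6) and 17.6 (14.1 to 21.6). The intervals cover counting error only. Osteogenic cells were lower by 1.11 for Erg (log2 difference -1.11, SE 0.20, adjusted p = 1.4e-06) and by 0.74 for Ets2 (-0.74, adjusted p = 0.0022), with 9.41% of genes called. Neither call held with DESeq2 (-1.06 and -0.67, adjusted p = 0.13 and 0.19) or without the library block (-1.12 and -0.62, adjusted p = 0.065 and 0.38). Without library 2 of E18.5 the adjusted p was 0.055 for Erg and 0.25 for Ets2, and without library 1 it was 0.013 and 0.31. Ets1 (-0.55), Fli1 (0.64) and Elk3 (0.10) were not called.

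**Figure D5:**
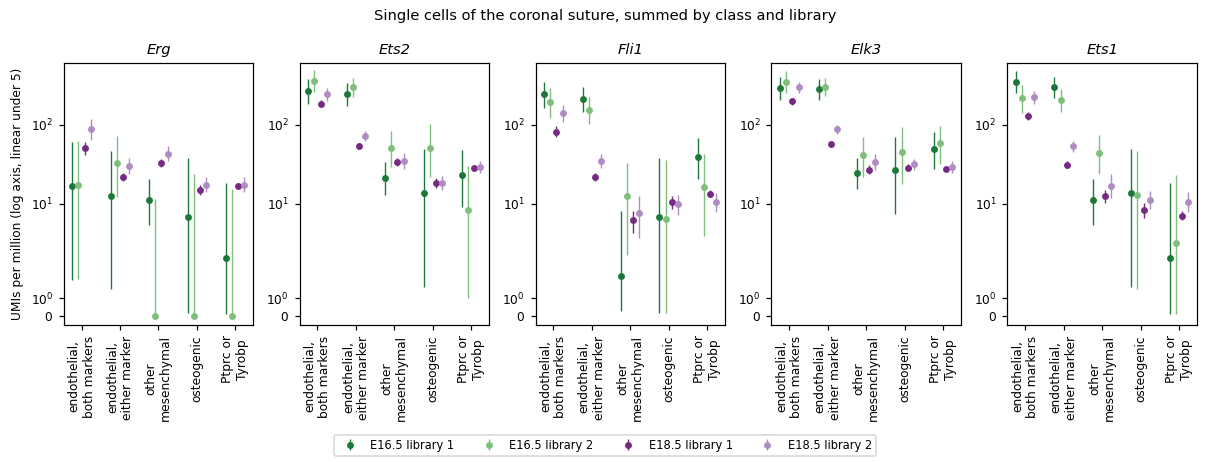
UMI level of each gene in CPM (symmetric log axis, linear under 5), summed over the cells of each class in each of the 4 single-cell libraries, with 95% Poisson intervals that cover counting error only. The last class holds cells with Ptprc or Tyrobp. Ets1, Fli1, Ets2 and Elk3 are highest in endothelial cells with both markers, and Erg at E18.5 is 50.9 and 87.5 there, 33.2 and 43.3 in other mesenchymal cells and 15.1 and 17.6 in osteogenic cells.

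The genes whose mean log2 CPM over the 20 groups was most like that of each member were named among 16592 genes, as a description, since groups share embryos, depth and library set. For Erg they were Zfp712 (Pearson's r 0.95), Ppp2r3a (0.95) and Pgm2l1 (0.94). The r with Cdh5 was 0.57 for Elk3, 0.52 for Ets1, 0.40 for Erg, 0.38 for Ets2 and 0.22 for Fli1. For Ets1 they were Sox18 (0.90), itself an endothelial factor, Parvb (0.89) and Col15a1 (0.88). Ets2 was nearest to Slc25a35 (0.87), Trib2 (0.81) and Traf5 (0.81), and Elk3 to Samd9l (0.89), Lama3 (0.86) and Irf2bp2 (0.85). The nearest of Fli1 were Gm38346 (0.95), Gm38292 and Gm37474, predicted transcripts that lie within the span of Fli1 on the same strand without sharing its exon bases. Among the members, r was 0.77 for Erg and Elk3, 0.70 for Erg and Ets2 and 0.61 for Ets2 and Elk3. Ets1 stood at 0.18 with Erg, 0.22 with Ets2 and 0.27 with Elk3. Fli1 stood at -0.23 with Erg, -0.14 with Ets1, -0.09 with Elk3 and 0.09 with Ets2.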

How the data were processed

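Laser-captured regions were sequenced after amplification (Ovation RNA-Seq V2, Nextera XT). Per the labels and the study's methods, the authors trimmed the reads (cutadapt), aligned them to mm10 (STAR 2.5.3a) and deposited raw counts per gene of the GENCODE annotation, made with featureCounts 1.6.4 without strand. Amplification and unstranded counting limit low genes and overlapping genes. Single-cell UMI counts came from Chromium libraries and Cell Ranger, deposited as matrices per library. A deposited table of the authors' own log2 ratios was not used, and 0 columns of other samples were found.

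Counts were scaled by TMM in edgeR 4.0.16 (R 4.3.3) and genes kept at 1 CPM in over 10% of the libraries. SM and OF were compared by the quasi-likelihood test with the embryo as a block, since the labels tie the regions to 1 embryo. The second coronal libraries alone were fitted without that block. Deviations of regions of the same embryo from their group means correlated with a median r of 0.0505 (60 pairs), against -0.0121 for other embryos (240 pairs). Ages were compared within regions, and over embryos with limma 3.58.1 on log2 CPM (prior count 2). A call is a Benjamini-Hochberg adjusted p under 0.05 over all genes, two-sided. DESeq2 1.42.0, limma-voom, median-ratio scaling, no filter, each embryo left out, no block and the second coronal libraries were alternatives. Single cells with over 800 genes were classed by markers, summed per library and class, and tested in edgeR with the library as a block where the summed UMIs reached 10. Tests were tried on simulated data first. With the embryo as a block, p-values measure the spread of region differences within embryos, pooled over all groups. Those of the age fits measure the spread between embryos. For single cells they measure the spread of class differences within libraries, each of which is a pool. Embryos that share the first part of a label were treated as independent. Depth was 7305627 to 34518477 counts per library. Python 3.11.15, numpy 2.4.6, pandas 2.3.3 and scipy 1.17.1 did the rest.

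The members, gene lists, marker classes and tests were chosen with earlier results of these data known. Besides the members, ETS relatives were named for the largest called SM and OF (up to 6) and age (up to 4) differences, ERK partners if called, and the 3 genes most like each member with Cdh5. Marker genes were set by list. A gene of the ERK list, and with it the counts over that list, is not reported here. Some alternatives (second libraries alone, ages of the single cells alone, deviations within a suture) were added after seeing the data.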

Additional observations from a re-analysis of the deposited data

Results flagged for a closer look

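The 5 genes in 20 groups of 5 embryos gave 100 sets of values. In 5 of these sets 1 library lay apart from the others by Dixon's test, and chance flags about 1 in 20. Erg in frontal FR at E18.5 reached 646 CPM in embryo 5, against 76.6 to 149.5 in the others. Erg in frontal FR at E16.5 reached 120.0 CPM in embryo 1 (others 70.1 to 80.9). Ets1 in frontal SM at E16.5 reached 29.2 CPM in embryo 5 (others 18.9 to 21.3). Ets2 reached 94.0 CPM in coronal FR at E18.5 in embryo 3 (others 78.3 to 81.7) and 73.8 in lambdoid IP at E16.5 in embryo 4 (others 54.0 to 58.0).

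The difference between SM and OF varied among the 4 sutures for Erg (adjusted p = 6.9e-04), Ets2 (0.0019) and Ets1 (0.0029), by the edgeR quasi-likelihood test of equal means. By the same test Ets2 was not called without replicate 2 (0.091), nor Ets1 without replicate 4 (0.066).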

How the results depend on the processing

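The main fit made 24 calls of SM against OF over the 5 genes. With 1 embryo per group left out 16 to 24 were made (16 without replicate 4), without the embryo block 24 and under the other fits 21 to 26. These are totals, and the calls in them are not always the same. The exact sign-flip test of 5 pairs called 0, since it cannot go below 0.0625. The mean difference of Elk3 was not called without the low-count filter (0.13) and ranged from 0.10 to 0.17 with a replicate left out. That of Erg stayed between 1.26 (no embryo block) and 1.44, and that of Ets2 between 0.53 and 0.63, called each time. The 3 genes that differed among sutures fell to 2 without replicate 2 (Ets2 lost) or 4 (Ets1 lost). They numbered 4, with Elk3, where second coronal libraries replaced the first, a fit that mixes both sets within some embryos.

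The 9 age calls became 7 to 9 with a replicate left out, 9 with the replicate number as a block (which the labels do not pair between the ages) and 20 by the unadjusted exact permutation test. The per-embryo count of 2 was 1 to 2, and the Ets1 value 0.25 to 0.36, with a replicate left out. Ets1 in coronal SM turned from a rise to -0.23 in the second coronal libraries alone, and the cause was not tested. In the first libraries of the same samples it was 0.51, not called. Of 1942 values under alternatives, 71 differed in sign from a value that was not called, without a call of their own.

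In single cells, Erg was called higher in endothelial cells only with both markers required (1.19, and 1.19 in the E18.5 libraries alone). The 2 osteogenic calls fell to 0 with DESeq2, without the library block and in the E16.5 libraries alone, and to 0 to 1 with an E18.5 library left out. Erg then stood at -1.06 (DESeq2), -1.12 (no block) and -0.60 (E16.5), and from -1.16 to -1.07 with 1 library left out. Ets2 stood at -0.67, -0.62 and -0.11, and from -0.76 to -0.63 with 1 library left out. Low UMI counts limit Erg at E16.5, where 14 and 6 UMIs were found in all cells.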
